A study of Homo sapiens with 8 samples.

Results

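The mitochondrial ribosomal protein genes of MDA-MB-157 cells are described here at low and high glucose. They were chosen by name, as every gene whose symbol is MRPL or MRPS followed by a number and at most one of the letters A to C. This rule found 78 of the 21059 genes in the deposited table, each present once. MDA-MB-157 is an established breast cancer cell line without estrogen receptor. The cells grew for 48 hours in 5 mM glucose (low glucose, the control) or 25 mM glucose (high glucose), the level used to model hyperglycemia, with 4 RNA sequencing libraries in each group and no sugar control for osmolarity among the 8. Both groups came from 1 line, and nothing given says whether the replicates were separate experiments, so the p-values measure only the spread between these libraries.

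Mitochondria keep their own ribosome, which translates the few proteins encoded by mitochondrial DNA, all of them parts of the respiratory chain and ATP synthase. Its ribosomal RNAs are made inside the organelle, whereas all of its proteins are encoded in the nucleus, made in the cytosol and imported. Some of these proteins descend from bacterial ribosomal proteins and others were added during evolution of the organelle. By the uniform ribosomal nomenclature, 26 of the 78 products belong to the small subunit and 51 to the large subunit, MRPS18A and MRPS30 among the latter despite their names. MRPS36 is now known as a part of the 2-oxoglutarate dehydrogenase complex (KGD4) and is no ribosomal protein. Of the 77 others, the prefix of that name classes 46 as having a bacterial homolog and 31 as specific to mitochondria. The 31 include MRPS18A and MRPS18B, although both are paralogs of bacterial S18.

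All 78 genes were expressed. Their mean levels over the 8 libraries ran from 5.13 to 161.3 counts per 1000000 reads (CPM), with a median of 37.6 CPM, and the lowest value in any library was 4.38 CPM. The reads behind each library were estimated at 9721600 to 12482500. Of 9 markers listed, 2 were higher and 3 lower at high glucose in the test described below, beside 22.0% and 24.8% of all genes. Among these 9, VIM, an intermediate filament of mesenchymal cells, averaged 4091 CPM ± 28.5 in the low and 2967 CPM ± 210.3 in the high glucose libraries (SD, n = 4 each). ESR1, the estrogen receptor, was below the value of 3 reads in all 8 libraries. PTPRC of leukocytes was below that value too, while the collagen gene COL1A1, listed as a marker of fibroblasts, averaged 2145 CPM ± 98.2 and 861.1 CPM ± 74.8 (SD, n = 4 each), and its part in the results was not tested. In bulk RNA, fewer cells of a type and less RNA per cell cannot be told apart.

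One library stood apart, for these genes and more widely. High glucose replicate 1 lay above the mean of the other 3 high glucose libraries in 76 of the 78 genes, by a median of 0.26 in log2(CPM + 1), against 0.03 over all genes of at least 5 CPM. For the other 3 high glucose libraries, whose reference means include replicate 1, the median difference was -0.05 to -0.10. For the low glucose libraries it was -0.02 to 0.03. The summed level of the 78 genes was 3951 CPM in that library, 3272 to 3375 CPM in the other 3 and 3257 to 3347 CPM at low glucose. In that library the difference was larger for short transcripts, with a median of 0.36 for members under 1000 bases and 0.15 for those of 2000 bases or more (Spearman's rho = -0.63 over the 78 genes of 1 library, which share that library). The same library was the highest of its group in 87.18% of the members and in 100% of 79 cytosolic ribosomal protein genes. It was also the highest in 98.67% of 75 nuclear genes of oxidative phosphorylation. The share was 32.04% over all genes and 40.88% over genes of at least 5 CPM. The origin of this library's difference was not tested.

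**Figure D1:**
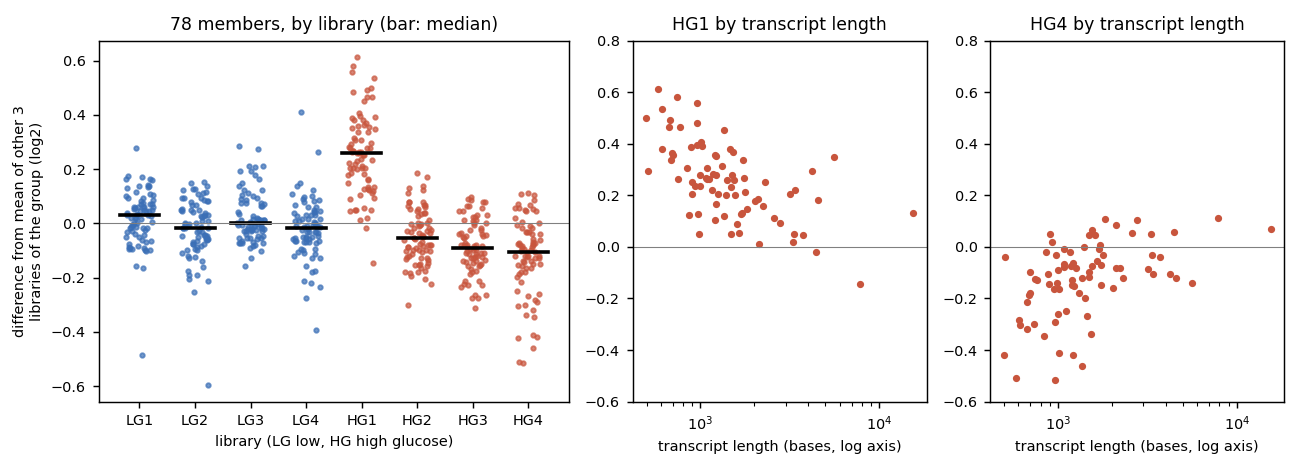
Left, difference of each of the 78 genes in each library from the mean of the other 3 libraries of its group, in log2(CPM + 1), with the median as a bar (LG, low glucose; HG, high glucose). Middle and right, the same difference against the length of the annotated transcript for high glucose replicates 1 and 4. High glucose replicate 1 has a median of 0.26 and its points fall with length, whereas those of replicate 4 rise.

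At high glucose these genes moved in both directions, and their median change was near 0. With limma on log2(CPM + 1) and Benjamini-Hochberg adjustment over all 21059 genes, 14 of the 78 were higher at high glucose, 17 were lower and 47 did not pass an adjusted p of 0.05. Over all genes 46.8% were called, 22.0% higher and 24.8% lower, and over the 11297 genes of at least 5 CPM, a level that every member reached, 66.9% were called, 33.6% higher and 33.3% lower. The share called among the members, 39.74%, thus lay below that of genes of at least 5 CPM, a difference that was not tested. Those genes had no upper limit of level and a median transcript length of 3434 bases, against 1242 for the members. The gap was smaller without high glucose replicate 1 and with the length trend removed, for which the counts are given below. The 4 low and 4 high glucose values did not overlap in 28 of the 78 members (35.9%), against 65.0% of the genes of at least 5 CPM. The median log2 change was 0.02 over the members and -0.01 over all genes.

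The split depended on transcript length, on the library that stood apart and on the scaling. With the trend of each library with transcript length removed, 30 members were higher and 18 lower, so that the balance turned, and the median was 0.09. Genes of at least 5 CPM then had 4186 higher and 3995 lower. Without high glucose replicate 1, 15 members were higher and 25 lower, and the median was -0.07. Genes of at least 5 CPM then had 3994 higher and 4032 lower. Scaling by the median of ratios, in place of the deposited TMM factors, gave 18 higher and 13 lower. The higher share of calls was then 58.06% among the members, near the 54.52% among genes of at least 5 CPM. A fit restricted to the 14372 genes of at least 1 CPM gave 17 higher and 20 lower. Across 15 such alternatives, 12 of the 14 higher and 12 of the 17 lower members passed in every one.

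**Figure D2:**
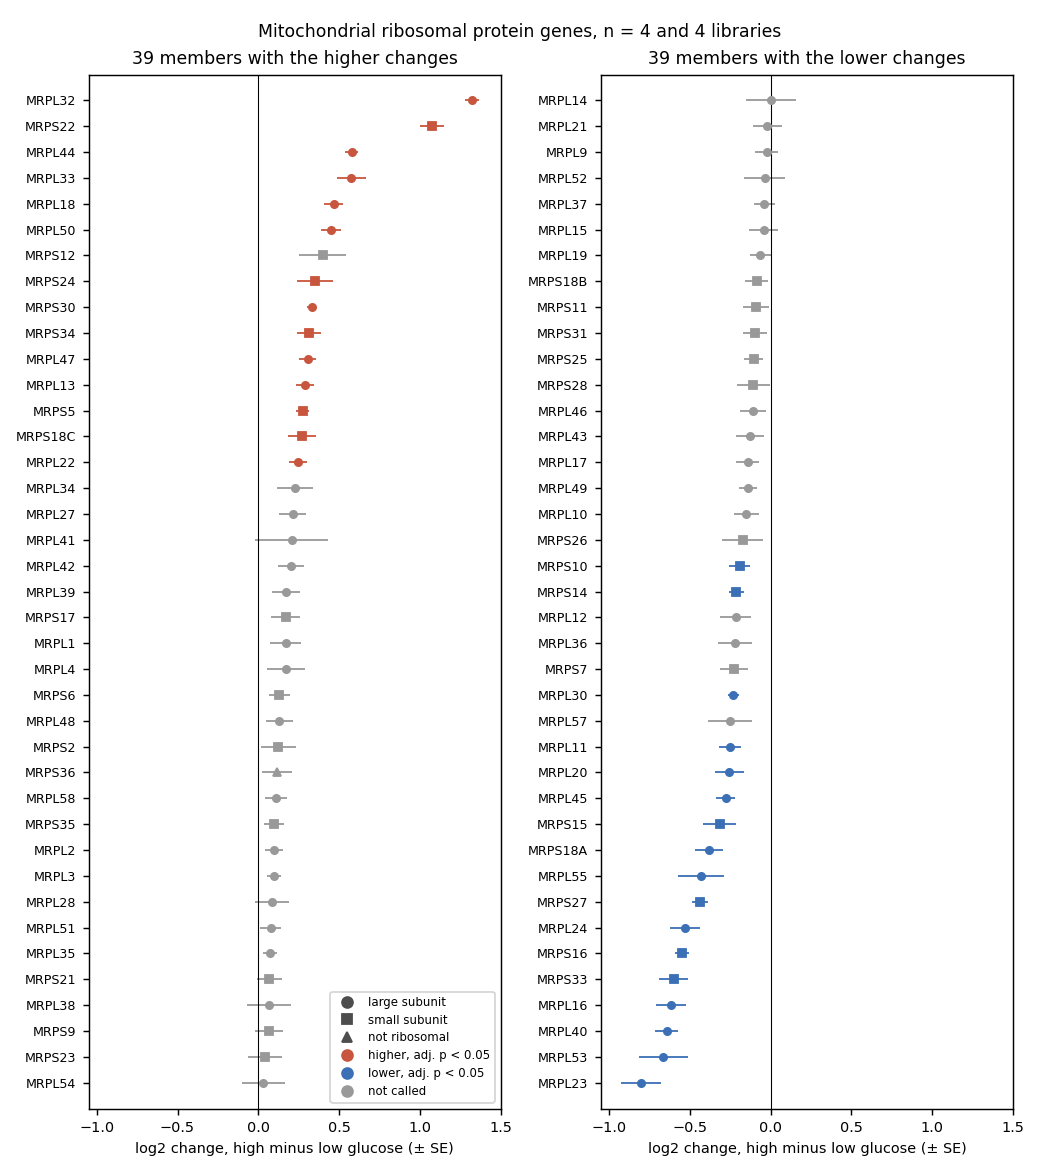
Log2 change (high minus low glucose, on log2(CPM + 1), ± SE) of each of the 78 genes in order of size, in 2 panels of 39, with 4 libraries per group. Red points rose and blue points fell at an adjusted p under 0.05, and both subunits are found at both ends, from 1.32 for MRPL32 to -0.80 for MRPL23.

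Both subunits held genes that rose and genes that fell. Of the 26 genes of the small subunit, 5 were higher and 6 lower, and of the 51 of the large subunit, 9 were higher and 11 lower, with medians of -0.02 and 0.00. Without high glucose replicate 1, the small subunit had 4 higher and 8 lower and the large subunit 11 and 17, with medians of -0.08 and -0.09, and with the length trend removed they had 10 and 7, and 19 and 11. Among the genes classed by name with a bacterial homolog, 9 of 46 were higher and 11 lower. Among those classed as specific to mitochondria, 5 of 31 were higher and 6 lower. The counts were 10 and 17, and 5 and 8, without that library, and 20 and 11, and 9 and 7, with the length trend removed. Of the 47 members that share no annotated exon and under 25% of their sequence words of 31 bases with another gene, 7 were higher and 12 lower, 9 and 16 without that library and 17 and 11 with the length trend removed.

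MRPL32 had the largest rise. It encodes a large subunit protein with a bacterial homolog whose maturation in the organelle requires cleavage by the m-AAA protease. At low glucose its libraries gave 56.2, 59.2, 54.5 and 57.0 CPM and at high glucose 152.8, 134.0, 144.9 and 141.9 CPM. The 2 groups were far apart, and the library that stood apart was the highest of all. The means were 56.7 CPM ± 1.95 and 143.4 CPM ± 7.78 (SD, n = 4 each), a ratio of 2.53 and a log2 change of 1.32 ± 0.04 (SE, adjusted p = 1.833e-06, limma). The gene (ENSG00000106591.4) is annotated on chromosome 7 from 42971975 to 42988557 on the plus strand in GENCODE 44 on GRCh37, with 3 exons in its main transcript.

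MRPS22 came next. Its product is a small subunit protein specific to mitochondria. The low glucose values were 35.3, 30.97, 39.3 and 36.6 CPM and the high glucose values 80.2, 78.3, 74.2 and 70.9 CPM. Every high glucose library lay above every low glucose library, by a ratio of means of 2.13 and a log2 change of 1.08 ± 0.08 (SE, adjusted p = 3.26e-05). MRPS22 is annotated on chromosome 3 from 138724648 to 139079339, plus strand, and 26.56% of the bases of its main transcript lie opposite exons of COPB2, a coat protein gene of the other strand. COPB2 fell from 267.3 CPM ± 8.14 to 210.6 CPM ± 9.10 (SD, n = 4 each), and whether reads were counted by strand is not established for the table.

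4 further large subunit genes rose by 1.37-fold to 1.504-fold. MRPL44, whose product has the fold of a ribonuclease III, went from 42.8, 42.4, 43.7 and 39.8 CPM to 67.8, 61.8, 61.0 and 63.1 CPM, a log2 change of 0.58 ± 0.04 (SE, adjusted p = 3.93e-05). MRPL33 went from 87.2, 76.1, 81.8 and 75.4 CPM to 139.7, 118.6, 105.8 and 117.2 CPM, a log2 change of 0.58 ± 0.09 (SE, adjusted p = 0.001498). In neither did the groups overlap, although the high glucose values of MRPL33 were spread more widely, with replicate 1 on top. MRPL18, a protein of the central protuberance that binds ribosomal RNA, went from 34.3, 33.0, 30.8 and 29.2 CPM to 47.4, 42.0, 44.4 and 43.5 CPM, a log2 change of 0.47 ± 0.06 (SE, adjusted p = 0.0005186). MRPL50, specific to mitochondria, rose from a mean of 49.7 to 68.1 CPM, a log2 change of 0.45 ± 0.06 (SE, adjusted p = 0.0008006). Both were separated without overlap and passed in all 15 alternatives.

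MRPS30 and MRPS24 completed the 8 largest rises among called members without overlap. MRPS12 changed by more, 0.40 ± 0.15 in log2 (SE, adjusted p = 0.06137, limma), but its groups overlapped and it did not pass. With the length trend removed it passed as higher (0.51, adjusted p = 0.0003478, limma). MRPS30, which is part of the large subunit, had low glucose values within 64.9 to 65.9 CPM and high glucose values of 84.7, 79.9, 84.8 and 79.9 CPM. Its log2 change was only 0.33 ± 0.03 (SE, adjusted p = 5.173e-05), yet it was among the most regular. MRPS24, a homolog of a bacterial small subunit protein, had 100.1 CPM in high glucose replicate 1 and 69.97 to 74.2 CPM in the others, against 58.9 to 63.9 CPM at low glucose. Its log2 change was 0.35 ± 0.11 (SE, adjusted p = 0.03593), falling to 0.24 without replicate 1 (adjusted p = 0.001811), and the call was lost in 6 of the 15 alternatives. MRPS24 shares 90.58% of its words with the readthrough gene URGCP-MRPS24, itself at 0.00 to 2.12 CPM, so the counting could split reads between them. The other 6 higher members, MRPS34, MRPL47, MRPL13, MRPS5, MRPS18C and MRPL22, changed by 0.25 to 0.31 in log2. Of these, MRPS5 shares 97.12% of its words with other annotated genes, mainly ENSG00000289685 of the same strand. For MRPS34, 32.57% of the transcript lies opposite exons of EME2 on the other strand.

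**Figure D3:**
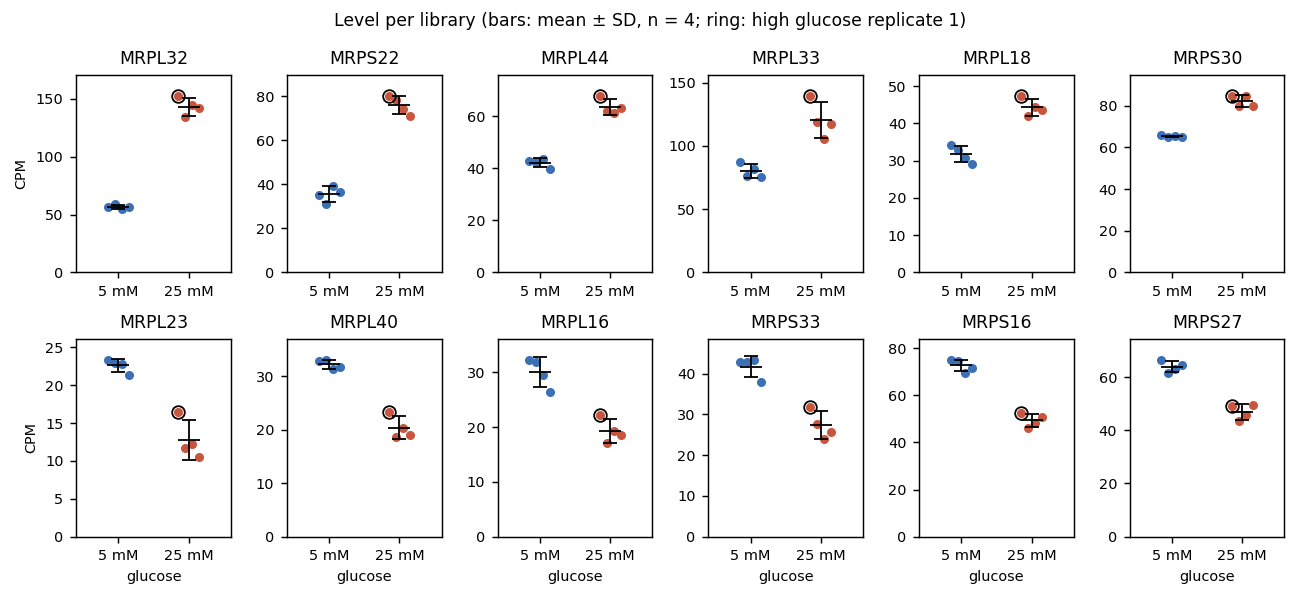
CPM in each library for 6 members that rose (top) and 6 that fell (bottom) at high glucose, with mean ± SD (n = 4) as bars and high glucose replicate 1 ringed. The groups do not overlap in any of the 12, and MRPL32 runs from 54.5 to 59.2 CPM at low and 134.0 to 152.8 CPM at high glucose.

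MRPL23 had the largest fall. The protein sits at the exit of the tunnel through which new chains leave the large subunit. It had 23.3, 22.9, 22.8 and 21.4 CPM at low glucose and 16.5, 11.7, 12.2 and 10.5 CPM at high glucose. The groups did not overlap, and replicate 1 was the high glucose library closest to the controls. The log2 change was -0.80 ± 0.12 (SE, adjusted p = 0.001587), and -0.92 without replicate 1. It is annotated on chromosome 11 from 1968508 to 2005752, plus strand.

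The next falls had similar sizes but unequal grounds. MRPL40 went from 32.8, 33.1, 31.3 and 31.8 CPM to 23.4, 18.6, 20.4 and 18.9 CPM, a log2 change of -0.64 ± 0.07 (SE, adjusted p = 0.0002638). MRPL16, whose bacterial homolog helps to shape the site where transfer RNAs sit, went from 32.3, 32.0, 29.6 and 26.4 CPM to 22.2, 17.1, 19.3 and 18.5 CPM, a log2 change of -0.62 ± 0.09 (SE, adjusted p = 0.001341). Neither shares exons or sequence with another annotated gene. MRPL53 fell from 21.6 CPM ± 1.76 to 13.5 CPM ± 3.09 (SD, n = 4 each), a log2 change of -0.66 ± 0.15 (SE, adjusted p = 0.009324), but 99.14% of its words are also in CCDC142, a gene of the same strand that fell by 0.23 in log2 (adjusted p = 0.0105). How reads were divided between these 2 genes is not established.

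4 more members fell by 0.44 to 0.60 in log2 with no overlap. MRPS33, specific to mitochondria, had 42.8, 42.8, 43.4 and 38.02 CPM at low glucose and 31.9, 27.7, 24.1 and 25.7 CPM at high glucose, for a log2 change of -0.60 ± 0.09 (SE, adjusted p = 0.001249). MRPS16, which has a bacterial homolog, had 75.1, 74.5, 69.7 and 71.5 CPM and then 52.5, 46.4, 48.2 and 50.9 CPM, a log2 change of -0.55 ± 0.04 (SE, adjusted p = 6.385e-05). MRPS16 was the more regular of the pair, since its high glucose values spanned 46.4 to 52.5 CPM. MRPL24 went from 36.8 CPM ± 0.60 to 25.4 CPM ± 3.81 (SD, n = 4 each), with 31.1 CPM in high glucose replicate 1 and 22.9 to 23.8 CPM in the others. MRPS27, a pentatricopeptide repeat protein that binds RNA, went from 66.6, 61.7, 63.3 and 64.6 CPM to 49.3, 43.5, 45.7 and 49.7 CPM, a log2 change of -0.44 ± 0.05 (SE, adjusted p = 0.0002831). The remaining 9 lower members changed by -0.19 to -0.43 in log2.

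The promoter windows of the 3 largest rises and of the 2 largest falls that have an entry in the RefSeq promoter table are shown to place the short motifs that are counted below. Each is the 250 bases before the annotated start on GRCh38.p14, in the direction of transcription, 5′ to 3′. Capitals mark a match to the YY1 motif AAGATGGCG or the ETS motif CCGGAAG on either strand. The windows are MRPL32 at chr7:42932126-42932375 (plus strand), MRPS22 at chr3:139343744-139343993 (plus strand), MRPL44 at chr2:223957213-223957462 (plus strand), MRPL53 at chr2:74472681-74472930 (minus strand) and MRPL40 at chr22:19432295-19432544 (plus strand).
MRPL32: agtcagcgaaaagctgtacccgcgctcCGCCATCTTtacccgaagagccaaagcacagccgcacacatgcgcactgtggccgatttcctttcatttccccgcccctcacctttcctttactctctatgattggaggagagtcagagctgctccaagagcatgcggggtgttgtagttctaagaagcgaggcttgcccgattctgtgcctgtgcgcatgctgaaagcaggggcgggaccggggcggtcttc
MRPS22: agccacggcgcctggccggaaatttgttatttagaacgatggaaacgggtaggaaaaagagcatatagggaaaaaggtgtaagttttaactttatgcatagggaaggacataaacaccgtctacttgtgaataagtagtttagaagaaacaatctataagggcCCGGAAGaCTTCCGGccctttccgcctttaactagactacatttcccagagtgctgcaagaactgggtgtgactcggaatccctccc
MRPL44: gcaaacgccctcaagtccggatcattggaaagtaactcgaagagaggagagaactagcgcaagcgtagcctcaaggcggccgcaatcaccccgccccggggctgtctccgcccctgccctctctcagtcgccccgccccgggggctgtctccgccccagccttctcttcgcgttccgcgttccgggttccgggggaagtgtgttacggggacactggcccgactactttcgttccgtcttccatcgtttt
MRPL53: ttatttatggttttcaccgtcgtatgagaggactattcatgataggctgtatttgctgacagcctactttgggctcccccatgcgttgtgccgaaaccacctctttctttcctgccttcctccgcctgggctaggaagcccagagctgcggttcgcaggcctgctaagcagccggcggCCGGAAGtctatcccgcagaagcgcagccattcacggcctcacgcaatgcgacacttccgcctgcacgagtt
MRPL40: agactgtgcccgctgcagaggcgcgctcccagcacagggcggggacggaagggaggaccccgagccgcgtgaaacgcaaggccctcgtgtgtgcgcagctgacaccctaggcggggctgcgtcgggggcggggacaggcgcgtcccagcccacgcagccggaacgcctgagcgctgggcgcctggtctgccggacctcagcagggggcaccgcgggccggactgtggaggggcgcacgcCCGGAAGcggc
The MRPL32 window holds 1 YY1 motif, MRPS22 holds 2 ETS motifs, MRPL53 and MRPL40 hold 1 ETS motif each, and MRPL44 holds neither, so the ETS motif stood before a gene that rose and before genes that fell.

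Short motifs were counted in the full 300-base window (250 before and 50 after the start) of the 69 members that have one, on both strands. The ETS motif CCGGAAG was in 29 of 69 (42.03%), against 10.67% of all 27305 windows and 21.01% of the 8816 windows of expressed genes. The YY1 motif AAGATGGCG was in 13 of 69 (18.84%), against 1.849% and 4.424%. The consensus motif of NRF1 was in 8 of 69 (11.59%), against 6.285% and 12.64%. Both of the first 2 motifs were in 4 members, and in none did they share letters as 1 joined run. The YY1 motif was in 5 of 13 higher members, 2 of 16 lower ones and 6 of 40 not called. The ETS motif was in 5 of 13, 9 of 16 and 15 of 40, and the NRF1 motif in 0 of 13, 3 of 16 and 5 of 40. These counts describe letters in a window, and no comparison between them was tested.

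The 3 paralogs of bacterial S18 differed from each other. MRPS18A, found in the large subunit, fell from 33.4 CPM ± 1.75 to 25.5 CPM ± 2.99 (SD, n = 4 each), a log2 change of -0.38 ± 0.09 (SE, adjusted p = 0.008754), with no overlap. MRPS18B, in the small subunit, was at 60.9 CPM ± 4.48 and 57.3 CPM ± 4.42 (SD, n = 4 each), with overlapping groups (log2 change -0.09 ± 0.07, SE, adjusted p = 0.3652). MRPS18C, the paralog at the bacterial S18 position, rose from 23.3 CPM ± 1.39 to 28.4 CPM ± 3.37 (SD, n = 4 each), a log2 change of 0.27 ± 0.09 (SE, adjusted p = 0.03822), but the groups overlapped and the call was lost without high glucose replicate 1 (0.20, adjusted p = 0.06025). ABRAXAS1 on the other strand, opposite 83.61% of the MRPS18C transcript, fell from 13.1 CPM ± 1.40 to 6.10 CPM ± 0.30 (SD, n = 4 each). The 3 paralogs were not tested against each other.

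3 members with roles beyond structure did not pass with all libraries and genes. MRPL58, a peptidyl-tRNA hydrolase built into the large subunit, was at 35.5 CPM ± 1.55 and 38.4 CPM ± 3.69 (SD, n = 4 each; adjusted p = 0.2431), and MRPS36 was at 23.8 CPM ± 1.62 and 26.0 CPM ± 3.38 (SD, n = 4 each; adjusted p = 0.3746). MRPL12, the stalk protein that also binds the mitochondrial RNA polymerase, had 69.8, 69.98, 70.2 and 73.9 CPM at low glucose and 75.7, 58.3, 56.1 and 55.9 CPM at high glucose. High glucose replicate 1 was the highest of all 8 libraries and the other 3 of its group were the lowest. The log2 change was -0.22 ± 0.10 (SE, adjusted p = 0.1145) with it and -0.32 without it (adjusted p = 0.000193), and with all 8 libraries it also passed when only genes of at least 1 CPM were fitted (adjusted p = 0.03768). With the length trend removed, MRPL58 (0.22, adjusted p = 0.001287) and MRPS36 (0.20, adjusted p = 0.01956) passed as higher.

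Per kilobase of annotated transcript, levels spanned a wide range. MRPL33 was at 157.7 CPM per kilobase at low and 236.9 at high glucose, MRPS6 at 165.2 and 181.4, and MRPL32 at 66.0 and 167.0, so that MRPL32 took a place among the top 3 by its level at high glucose. MRPS6 shares 33.96% of its words with SLC5A3, an inositol transporter gene, and with another gene of the same strand. The lowest were MRPL57 at 2.72 and 2.18, MRPL42 at 2.60 and 3.01, and MRPS31 at 3.59 and 3.32 CPM per kilobase. The value of MRPL42 rests on an annotated transcript of 15557 bases.

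Several of these genes start close to a protein-coding neighbor on the other strand. Within 1000 bases of the start (with at most 200 bases of overlap), 26 members had such a partner, giving 26 pairs, and in 8 pairs both genes were called. In 2 of these 8 both rose, in 1 both fell and in 5 they moved oppositely. Singly, 39.74% of the members and 66.9% of genes of at least 5 CPM were called, and the pairs were not tested against these shares. MRPL18 and its neighbor TCP1, a chaperonin subunit, both rose, TCP1 from 142.0 CPM ± 3.92 to 224.0 CPM ± 13.1 (SD, n = 4 each). MRPS18C and HELQ also both rose, but the MRPS18C call was lost without high glucose replicate 1. MRPL47 rose while NDUFB5 of respiratory complex I fell from 64.3 CPM ± 2.10 to 44.7 CPM ± 6.90 (SD, n = 4 each), and MRPL50 rose while ZNF189 fell from 56.2 CPM ± 2.36 to 37.5 CPM ± 2.70 (SD, n = 4 each). MRPL40 fell while HIRA, a histone chaperone, rose from 39.03 CPM ± 2.11 to 45.4 CPM ± 2.49 (SD, n = 4 each). MRPL32 had 2 partners and so counts in 2 pairs. PSMA2, a proteasome subunit that starts 202 bases from MRPL32, was at 152.8 CPM ± 5.15 and 175.4 CPM ± 28.7 (SD, n = 4 each), beside the 2.53-fold ratio of MRPL32. AC010132.3, which starts 162 bases from MRPL32 on the strand of PSMA2, fell from 30.8 CPM ± 3.59 to 20.6 CPM ± 1.90 (SD, n = 4 each). The pair of MRPL32 and AC010132.3 is among those that moved oppositely, whereas PSMA2 was not called. How reads were divided between AC010132.3 and PSMA2 is not established. TWNK, the mitochondrial DNA helicase, doubled from 15.5 CPM ± 1.25 to 31.4 CPM ± 1.56 (SD, n = 4 each) while MRPL43, which starts 46 bases away, did not pass (log2 change -0.13, adjusted p = 0.292).

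The other genes of mitochondrial translation also split. In all, 80 genes in 5 lists cover other subunits, assembly factors, translation factors, transfer RNA synthetases and mitochondrial transcription and DNA maintenance. Of the 80, 19 were higher and 25 lower, and 18 and 31 without high glucose replicate 1. With the length trend removed 25 were higher and 23 lower, and with median-of-ratios scaling 22 and 21. The share called was 55.0%, beside 46.8% of all genes and 66.9% of genes of at least 5 CPM. Among 5 other subunits only PTCD3 passed, from 73.7 CPM ± 2.58 to 84.4 CPM ± 5.53 (SD, n = 4 each), while 3 of the others were lower without high glucose replicate 1. In the assembly list of 28, 5 were higher, led by NGRN at 117.9 and 182.5 CPM, and 8 were lower, among them MTG1, a GTPase of ribosome assembly, at 31.01 and 20.02 CPM, and METTL15, a methyltransferase of the small ribosomal RNA, at 13.3 and 8.59 CPM, and 12 were lower without that library. Of 18 translation factors, 6 were higher and 5 lower, with the mitochondrial release factor MTRF1L at 27.6 CPM ± 3.61 and 60.7 CPM ± 2.73 (SD, n = 4 each), the elongation factor GFM1 at 57.3 and 75.5 CPM and the RNA-binding protein LRPPRC at 285.4 and 367.1 CPM. The 17 synthetases, which charge mitochondrial transfer RNAs, had 3 higher and 10 lower. HARS2 fell from 110.9 CPM ± 4.21 to 62.0 CPM ± 3.65, SARS2 from 29.7 CPM ± 1.25 to 20.0 CPM ± 0.88 and AARS2 from 16.4 CPM ± 1.22 to 10.7 CPM ± 0.69 (SD, n = 4 each).

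Genes that act upstream of the ribosome included several that rose about as much as MRPS22. Among 12 genes of mitochondrial transcription and DNA maintenance, 4 were higher and 2 lower. TFAM, which packages mitochondrial DNA and starts its transcription, went from 39.5, 42.2, 41.1 and 40.2 CPM to 80.5, 83.4, 80.4 and 81.1 CPM, a log2 change of 0.98 ± 0.02 (SE, adjusted p = 8.612e-07). MGME1, a nuclease of mitochondrial DNA, went from 35.3 to 60.9 CPM. Of 10 regulators of mitochondrial biogenesis, 8 were higher and 0 lower, and 6 were higher without high glucose replicate 1. Among all genes of at least 5 CPM 33.6% were higher. The list of 10 was chosen with earlier results known and was not tested as a set. PPARGC1A, which encodes the coactivator PGC-1α, had 18.8, 19.5, 16.6 and 17.99 CPM at low glucose and 52.6, 66.6, 64.6 and 72.7 CPM at high glucose, for a log2 change of 1.75 ± 0.10 (SE, adjusted p = 1.391e-05). YY1, the factor whose motif was counted above, doubled from 130.5 CPM ± 2.86 to 264.2 CPM ± 10.7 (SD, n = 4 each), and PPRC1 went from 55.2 to 90.0 CPM. Of the 13 mitochondrially encoded messenger RNAs, which this ribosome translates, 6 were higher and 1 lower, and 8 and 1 without high glucose replicate 1. Their summed level was 14790, 14560, 15110 and 15350 CPM at low and 14730, 15410, 17570 and 18690 CPM at high glucose. High glucose replicates 1 and 2 thus lay near the low glucose libraries in that sum. MT-ND2 had 776.1 to 844.8 CPM at low and 1588 to 1978 CPM at high glucose, MT-ND1 went from 409.9 to 719.4 CPM and MT-ND3 from 95.5 to 152.7 CPM, all subunits of complex I.

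For comparison, 2 other lists of nuclear genes for ribosomes and mitochondria had more lower than higher genes. Their transcripts were shorter, with a median of 785 bases for the cytosolic ribosomal proteins and 763 for oxidative phosphorylation, against 1242 for the members. Of 79 cytosolic ribosomal protein genes, 0 were higher and 51 lower, with a median log2 change of -0.38, and of 75 nuclear genes of oxidative phosphorylation 5 were higher and 30 lower, with a median of -0.17. The 14 higher and 17 lower members had a median of 0.02. Without high glucose replicate 1 the counts were 0 and 71, 5 and 48, and 15 and 25. With the length trend removed they were 4 and 54, 14 and 34, and 30 and 18. The difference between the lists was not tested.

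**Figure D4:**
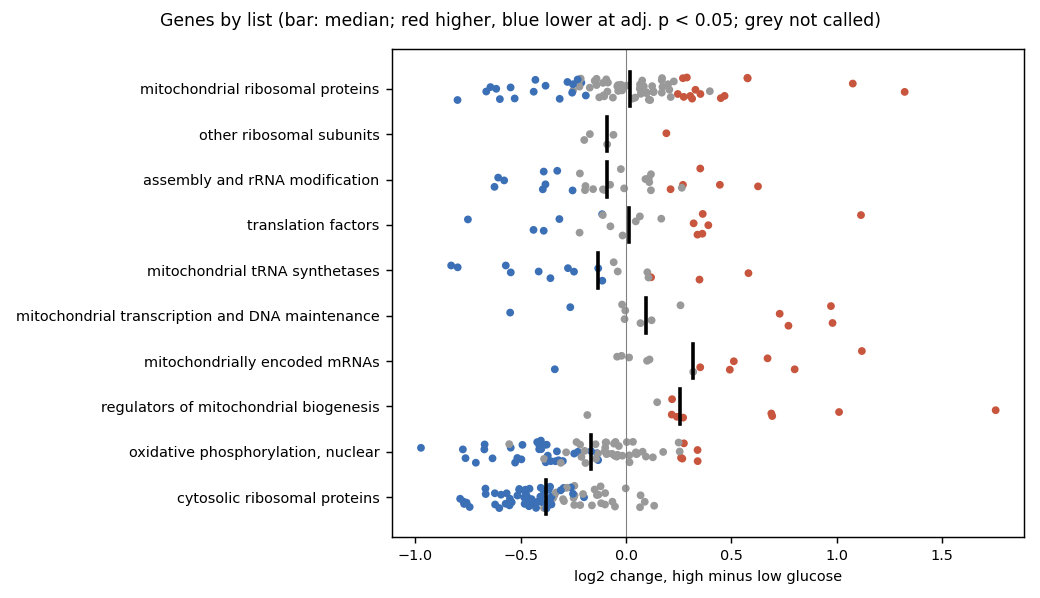
Log2 change (high minus low glucose, on log2(CPM + 1)) of each gene in 10 lists, with the median of each list as a bar. The 78 mitochondrial ribosomal protein genes lie on both sides of 0 with a median of 0.02, and the 79 cytosolic ones have a median of -0.38. Of the 10 regulators 8 rose, beside 33.6% of all genes of at least 5 CPM.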

How the data were processed

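RNA was sequenced from 4 low glucose and 4 high glucose libraries of MDA-MB-157 cells, grouped by the treatment label. The authors deposited CPM scaled with TMM factors, and edgeR is the tool that the submitters' processing notes name. Those notes name the build hg38, whereas the study's methods describe hg19, so the build, annotation release and use of strand in counting are not established, and positions come from GENCODE 44 on GRCh37. The values rest on fractional counts, and whole reads were not recovered. The depth, the library sum over the value of 1 read, covers counting error only.

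From these values, 18 duplicate Y copies were removed and 21059 genes were fitted together on log2(CPM + 1) with limma 3.58.1 in R 4.3.3 (mean-variance trend, 2-sided, no covariate), with Benjamini-Hochberg adjustment over all genes and a threshold of 0.05. Fold changes on this scale understate those of low genes. The fit was tested on simulated data with known 2-fold changes, larger than those of most members. The simulated libraries had no library apart and no trend with length, and recovery of smaller changes was not simulated. All calls on changed genes had the right sign and the main fit recovered nearly all of them, but the replicate block and the fits without a library missed the recovery first required of every fit, a requirement then kept only for the fit on all libraries and the fit on genes of at least 1 CPM. It includes 856 genes at 0 in every library, and its prior had 1.05 degrees of freedom, against 6.67 when only the 14372 genes of at least 1 CPM were fitted, so fits on all genes have less power. Alternatives were another pseudocount (0.1), a minimum mean of 1 CPM, 2 other scalings, a replicate block, removal of the trend with length, no mean-variance trend and leaving out each library.

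Named members were the 8 largest rises and the 8 largest falls among called members of at least 5 CPM without overlap, the S18 paralogs, MRPS30, MRPS36, MRPL12, MRPL58 and MRPS27, the 3 highest and 3 lowest per kilobase, and those with a library set apart by Dixon's ratio. In each other list up to 3 genes with the smallest adjusted p were named. Markers, neighbors and overlapping genes were named beside the results they touch. The members and lists were chosen with earlier results of these data known. Promoter sequences came from RefSeq (GRCh38.p14), which held a window for 69 of the 78 members.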

Additional observations from a re-analysis of the deposited data

Results flagged for a closer look

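Dixon's ratio, the gap of the highest or lowest library to its nearest neighbor over the range of the group, passed its 95% critical value in 17 of 156 ratios (78 genes in 2 groups), where chance gives about 1 in 20, or 7.8. High glucose replicate 1 was the highest library in 10 of the 17. These were MRPS24 (0.8592), MRPS34 (0.8898), MRPL34 (0.8614), MRPL1 (0.886), MRPL48 (0.9083), MRPS21 (0.8831), MRPL21 (0.9027), MRPL12 (0.8803), MRPL55 (0.8466) and MRPL24 (0.8849). At high glucose, replicate 2 was the lowest for MRPS31 (0.8396) and replicate 3 for MRPL42 (0.8451).

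At low glucose, replicate 1 was the highest for MRPS31 (0.9084) and MRPS15 (0.969). Replicate 2 was the lowest for MRPL49 (0.8457), while replicate 4 was the highest for MRPL12 (0.8921) and the lowest for MRPS33 (0.891). The cause of these values was not tested.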

How the results depend on the processing

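Across 15 alternatives, the number of higher members (14) stayed within 1.5 times except when each library's trend with transcript length was removed, which gave 30 higher and 18 lower. Leaving out 1 library at a time gave 12 to 16 higher, 13 to 25 lower, a median of -0.0702 to 0.0678, and 34 to 49 called among the 80 other genes of mitochondrial translation (44 with all libraries), and the lowest median and the 25 lower members came without high glucose replicate 1. The replicate block gave 13 higher, 15 lower and 38 of the 80. Deviations of same-numbered libraries correlated at -0.0403 to 0.0692, so the numbers were not taken as pairs. MRPS21, with log2 changes of -0.0093 to 0.101 when single libraries were left out, changed sign without high glucose replicate 1. MRPL21, at -0.0189 with all libraries, changed sign at 0.0221 with median-of-ratios scaling, 0.0052 with equal totals, 0.1079 with the length trend removed, and 0.0196, 0.0089 and 0.0054 without high glucose replicates 2, 3 and 4 and was called lower without high glucose replicate 1 (-0.1095, adjusted p = 0.02102). The values that changed sign did not pass the threshold, and the cause was not tested. Calls on MRPS24, MRPS18C, MRPS10, MRPL11, MRPL20, MRPS15 and MRPL55 were lost in 6, 6, 10, 2, 12, 8 and 9 alternatives. The fit on all genes had a prior of 1.05 degrees of freedom, against 6.67 on genes of at least 1 CPM, so its power was lower, and a call lost in the block or with a library left out does not show a smaller effect.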
